A study of Mus musculus with 18 samples.

Results

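The genes described here build, bind or organize the hyaluronan-rich matrix of the vessel wall, together with genes best known from cartilage. They were 10 of the 54281 genes in the deposited count table and were chosen by symbol: the large proteoglycans Vcan (versican) and Acan (aggrecan), the link proteins Hapln1 and Hapln3, the hyaluronan synthases Has1 and Has2, the hyaluronan receptor Cd44, the hyaluronan cross-linking protein Tnfaip6 (TSG-6), the transcription factor Sox9 and the matrilin Matn3. RNA was sequenced from whole descending aortas, taken from the end of the arch to the diaphragm with all layers of the wall together, in 3 groups of 6 male C57BL/6 mice. HGPS mice carry the Lmna G609G mutation at the endogenous locus, so that every cell type that uses Lmna can make progerin, the truncated Lamin A of Hutchinson-Gilford Progeria Syndrome, and were 64 to 75 d old. The 2-mo WT mice were 62 d old, except replicate 6 at 95 d, and the age of the 24-mo WT mice was 609 to 762 d. The labels name no treatment.

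Hyaluronan is a long unbranched sugar polymer that synthases in the plasma membrane extrude into the matrix. Versican and aggrecan are lecticans, proteoglycans with a hyaluronan-binding domain at the amino terminus and a central region that carries chondroitin sulfate chains, and a link protein locks each of them onto the polymer. Cells hold these aggregates through Cd44, and Tnfaip6 transfers the heavy chains of inter-alpha-trypsin inhibitor onto hyaluronan. Versican is the best known lectican of the artery wall, while aggrecan, Sox9 and matrilin-3 are classical products of chondrocytes. Sox9 drives the genes of aggrecan and of several other cartilage proteins.

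In the GRCm38 mouse assembly, 4 of these genes form neighbouring pairs of a link protein and a lectican. Hapln1 (ENSMUSG00000021613, chr13:89539796-89611652, plus strand) and Vcan (ENSMUSG00000021614, chr13:89655312-89742509, minus strand) lay 43659 bases apart, with their 3′ ends facing each other. Acan (ENSMUSG00000030607, chr7:79053483-79115099, plus strand) and Hapln3 (ENSMUSG00000030606, chr7:79115102-79131018, minus strand) were also oriented tail to tail and had 2 bases between them. Has2 (chr15:56665627-56694539, minus strand) overlapped its antisense gene Has2os, which held 24 to 42 counts in all in each group. The libraries kept the strand, but the strand setting of the counting is not given in the sources used here, so reads of Has2 and Has2os, or of the ends of Acan and Hapln3, could have been split between them. The other members were Has1 (chr17:17843323-17855205, minus strand), Cd44 (chr2:102811141-102901665, minus strand), Tnfaip6 (chr2:52038009-52056686, plus strand), Sox9 (chr11:112782224-112787760, plus strand) and Matn3 (chr12:8947929-8972028, plus strand).

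The promoters of Vcan, Cd44 and Acan are shown because these were the members with the highest counts, and each had another order of the 3 groups. Each run is the 250 bases before the RefSeq start of the gene, 5′ to 3′ on the strand of the gene, from GRCm38.p6: Vcan at chr13:89742513-89742762 on the minus strand, Acan at chr7:79052976-79053225 on the plus strand and Cd44 at chr2:102901666-102901915 on the minus strand. Capitals mark matches on either strand to a CCAAT box (CCAAT), a GC box (GGGCGG) or an NF-kB-like site (GGGA and CC with any 4 bases between them).
Vcan: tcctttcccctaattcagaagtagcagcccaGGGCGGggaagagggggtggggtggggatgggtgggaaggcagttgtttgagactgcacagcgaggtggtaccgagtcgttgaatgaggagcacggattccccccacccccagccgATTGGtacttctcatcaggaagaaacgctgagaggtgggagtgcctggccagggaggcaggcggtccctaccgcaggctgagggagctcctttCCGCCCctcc
Acan: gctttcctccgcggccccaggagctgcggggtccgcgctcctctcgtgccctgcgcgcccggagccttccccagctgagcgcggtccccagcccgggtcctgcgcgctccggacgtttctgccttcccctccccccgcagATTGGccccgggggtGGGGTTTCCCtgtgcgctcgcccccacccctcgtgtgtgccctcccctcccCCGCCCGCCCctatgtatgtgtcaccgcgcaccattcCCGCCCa
Cd44: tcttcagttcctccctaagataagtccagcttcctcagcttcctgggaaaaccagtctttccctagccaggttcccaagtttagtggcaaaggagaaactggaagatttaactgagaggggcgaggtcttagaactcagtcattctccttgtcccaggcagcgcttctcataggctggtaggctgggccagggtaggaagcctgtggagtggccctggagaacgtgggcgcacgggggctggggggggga

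The Vcan promoter held 1 CCAAT box and 2 GC boxes, with a GC content of 62.4%. The Acan promoter held 1 CCAAT box, 3 GC boxes, of which a pair overlapped, and 1 NF-kB-like match, and its GC content was 74.4%. None of these letters occurred in the Cd44 window, which had a GC content of 56.4%. Of 27025 promoters of the same length, 34.5% held a CCAAT box, 32.9% a GC box and 17.3% an NF-kB-like match. A TATA box (TATAAA, in 13.0% of promoters), an AP-1 site (TGANTCA, 6.87%) and a SOX-like site (ACAATG, 11%) were searched as well and were in none of the 3 windows. Such matches describe the letters in the window and do not show that a factor binds there. RefSeq promoters were matched for 8 of the 10 members, without Has2 and Sox9.

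Estimated counts per mouse totalled 12413229 to 30844775. Levels are in CPM, the count divided by library size after TMM scaling, a normalization that equalizes the bulk of genes between libraries. A gene entered the test with 10 or more counts in 6 or more mice, which 15210 genes met, and edgeR's quasi-likelihood test was adjusted by Benjamini-Hochberg over all of these. Genes past both cut-offs of the study, 1.5-fold and adjusted p under 0.001, are said to be called, and a second, wider rule used an adjusted p under 0.05 alone. All 10 members were tested. Hapln3 reached 10 counts in 5 HGPS mice, 1 2-mo WT mouse and 0 24-mo WT mice, and Has1 in 6, 2 and 3. Both genes therefore met the count filter only through the HGPS mice, in which they were high. The median log2 fold change of all tested genes lay between -0.0105 and 0.00834 in the 3 comparisons.

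Lmna, the mutated gene, held 445.1 to 653.2 CPM in HGPS, 340.7 to 486.4 in 2-mo WT and 340.6 to 539.9 in 24-mo WT, and gene counts do not separate progerin from the other Lmna products. The column names carry sample numbers whose meaning is not given. Numbers 19 to 34 belonged to 3 HGPS mice and all 24-mo WT mice, and numbers 41 to 50 to the other 3 HGPS mice and all 2-mo WT mice. The WT ages therefore cannot be told apart from this split within WT, and a fit with the number range as a term separates them only through the HGPS mice. Between the 2 sets of 3 HGPS mice edgeR's quasi-likelihood test found 0 genes at an adjusted p under 0.05, while 1565 genes (10.3%) had an unadjusted p under 0.05. Smooth muscle markers summed to 19400 to 27190 CPM in HGPS, 29330 to 37790 in 2-mo WT and 30260 to 34470 in 24-mo WT, and in whole tissue fewer cells of a type and less RNA per cell cannot be told apart. Brown fat markers summed to 455.0 to 1665 CPM in HGPS, 107.5 to 590.9 in 2-mo WT and 115.6 to 368.3 in 24-mo WT. Fits with the number range, or with scores of brown fat and skeletal muscle markers, are given beside the members that they move across the cut-offs or the wider rule. The muscle score rested on 3 of 6 markers, with 1 called higher and 1 lower in HGPS than in 2-mo WT. Brown fat markers differed there in 7 of 7 at an adjusted p under 0.05 (edgeR). The scores thus move with the groups, and such a fit cannot tell tissue mixture from genotype. White fat markers were not in the scores, at 607.6 to 1766 CPM in HGPS and 136.2 to 694.3 in 2-mo WT.

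Per kb of the longest coding transcript, Cd44, Vcan and Tnfaip6 had the highest levels of the members in 2-mo WT, at 13.4 ± 1.19, 11.6 ± 1.10 and 9.81 ± 2.58 CPM per kb (mean ± SD, n = 6). Neighbours among these 3 overlapped in range. Acan followed at 4.73 ± 0.612 CPM per kb, below every Tnfaip6 value, and Hapln1 at 1.16 ± 0.0960 CPM per kb, below every Acan value. Has2, Has1, Matn3 and Sox9 had mean levels from 0.468 down to 0.211 CPM per kb with overlapping ranges of neighbours, and Hapln3 was lowest at 0.0637 ± 0.0494 CPM per kb. In HGPS the order began with Cd44 at 21.04 ± 1.66 CPM per kb, above every value of Vcan at 11.1 ± 2.65. In 24-mo WT it began with Vcan at 20.8 ± 3.33 CPM per kb, above every value of Cd44 at 13.1 ± 1.48. Hapln1 came next after the 4 most abundant members in both WT groups, and in HGPS its range overlapped those of Has1 and Matn3, its neighbours in the order.

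**Figure D1:**
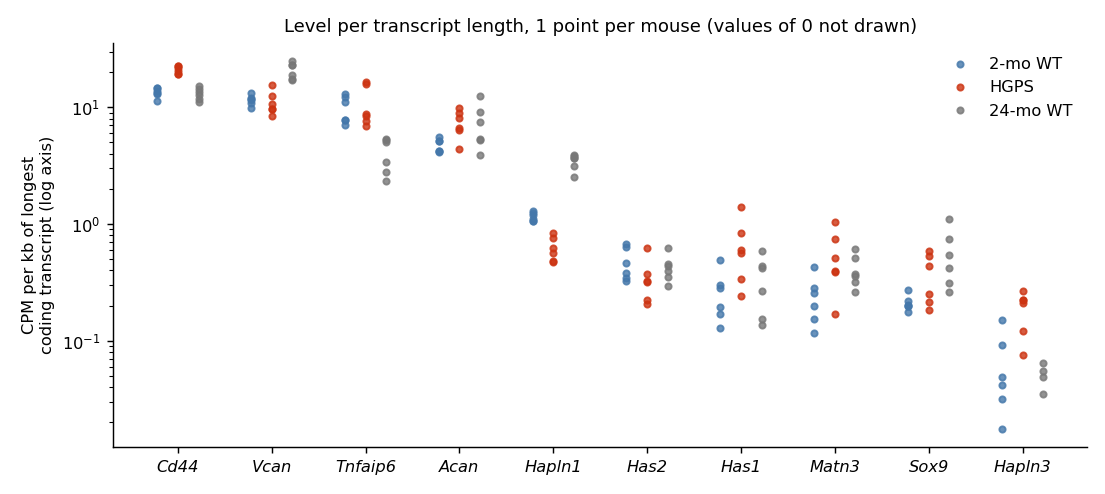
CPM per kb of the longest coding transcript on a log axis for the 10 genes, ordered by their mean in 2-mo WT, with 1 point per mouse and 6 mice in each of 2-mo WT (blue), HGPS (red) and 24-mo WT (grey). Cd44 lies highest in HGPS at 19.2 to 22.8 CPM per kb, Vcan lies highest in 24-mo WT at 17.2 to 24.9 CPM per kb, and 2 Hapln3 values of 0 in 24-mo WT are not drawn.

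HGPS aortas differed from 2-mo WT aortas at the cut-offs in 2 of the 10 genes: Cd44 rose and Hapln1 fell. Of all genes tested, 5.27% were called higher and 4.23% lower in this comparison. At an adjusted p under 0.05, 6 members differed, 5 higher (Acan, Hapln3, Has1, Cd44 and Matn3) and 1 lower (Hapln1), where 43.2% of all genes did. Hapln3 and Has1 met the count filter only through the HGPS mice, so their place in this count is no support for a rise. The groups did not overlap for 2 members, Cd44 and Hapln1, and for 21.9% of all genes. The median log2 fold change of the members was 0.65, against 0.00261 for all genes.

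Between the WT ages, Vcan and Hapln1 rose at 24 mo and were the members called, where 1.28% of all genes were called higher and 0.717% lower. At an adjusted p under 0.05 there were 4 members, with Sox9 higher and Tnfaip6 lower beside Vcan and Hapln1, against 11.7% of all genes. The ranges of the ages were apart for Vcan, Hapln1 and Tnfaip6, 3 of 10 members, and for 6.28% of all genes. The median log2 fold change of the members was 0.48, against 0.00834 for all genes.

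HGPS and 24-mo WT differed in 4 members at the cut-offs. Cd44 and Tnfaip6 were higher in HGPS and Vcan and Hapln1 lower, where 6.02% of all genes were called higher and 6.11% lower. At an adjusted p under 0.05 Hapln3 joined them, giving 5 members against 47.3% of all genes. The groups were apart for those 5 members and for 22.2% of all genes. Hapln3 met the count filter only through the HGPS mice, so its place in both counts follows in part from how it entered the test. The median log2 fold change of the members was 0.21, against -0.0105. The 3 comparisons share their mice, so their values stand side by side and are not independent of each other.

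**Figure D2:**
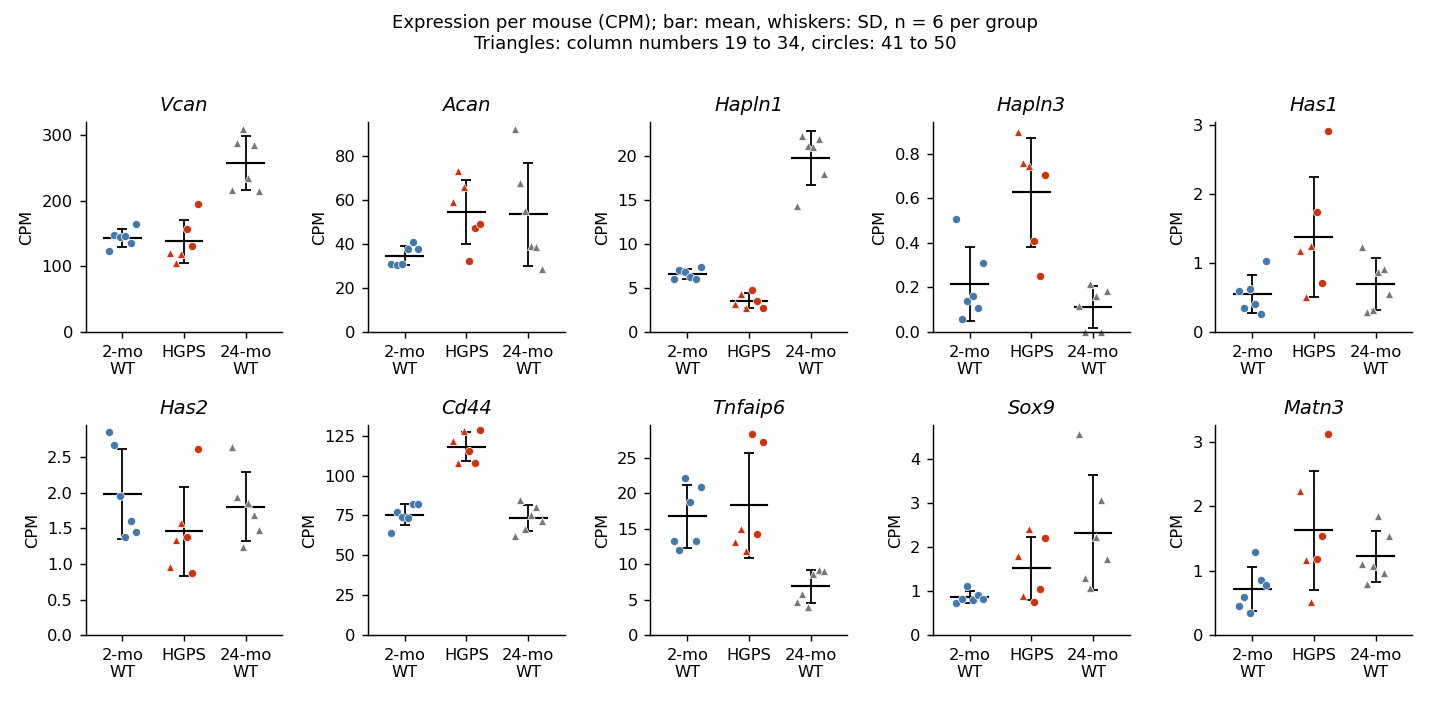
CPM on linear axes from 0 for each of the 10 genes, with 1 point per mouse (6 per group, triangles for column numbers 19 to 34 and circles for 41 to 50), horizontal bars for the group mean and whiskers for the SD. Cd44 is apart in HGPS at 107.6 to 128.2 CPM, Vcan is apart in 24-mo WT at 214.1 to 309.8 CPM, and Hapln1 takes a separate range in each group.

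Vcan, whose product fills the space between smooth muscle cells, was high in old WT aortas alone. In HGPS it ranged from 104.5 CPM in the lowest mouse through a median of 125.9 to 195.0 CPM in the highest. In 2-mo WT it ran from 122.9 through 145.4 to 164.0 CPM, inside the span of HGPS. The 24-mo WT mice held 214.1, 259.6 and 309.8 CPM (lowest, median and highest), so every old mouse lay above every young WT and every HGPS mouse. HGPS and 2-mo WT were not distinguishable in this test, with a log2 fold change of -0.06 ± 0.13 (SE, edgeR quasi-likelihood test, adjusted p = 0.752). The 24-mo WT mice exceeded the 2-mo WT mice by 0.84 ± 0.13 on the log2 scale (adjusted p = 0.000211), and HGPS lay below 24-mo WT by a log2 fold change of -0.90 ± 0.13 (adjusted p = 1.89e-05).

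The spread of Vcan among HGPS mice followed the column numbers. HGPS mice numbered 19 to 23 held 104.5 to 120.1 CPM and those numbered 48 to 50 held 131.8 to 195.0 CPM, which did not overlap but did not pass adjustment either (edgeR, adjusted p = 0.315). With the number range as a term, the rise at 24 mo on the log2 scale was 1.33 (adjusted p = 0.000748) and the log2 fold change of HGPS over 2-mo WT turned from below 0 to 0.17 (adjusted p = 0.366). With brown fat and skeletal muscle scores as covariates, the rise at 24 mo stayed at 0.83 but its adjusted p was 0.00201, and the difference between HGPS and 24-mo WT was -0.61 with an adjusted p of 0.0343, so both left the cut-offs.

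Acan, the lectican that dominates cartilage, showed the widest spread in old mice. It ranged over 32.4, 54.1 and 73.2 CPM in HGPS (lowest, median and highest), 30.6, 34.4 and 40.9 CPM in 2-mo WT and 28.9, 47.1 and 92.4 CPM in 24-mo WT. Of the HGPS mice, 5 of 6 lay above every 2-mo WT mouse, and the 24-mo WT range enclosed both other groups. The log2 fold change of HGPS over 2-mo WT was 0.65 ± 0.23 (SE, edgeR, adjusted p = 0.0282), which met the wider rule and not the cut-offs. For 24-mo WT over 2-mo WT it was 0.62 ± 0.23 (adjusted p = 0.0873), and between HGPS and 24-mo WT it was 0.02 ± 0.23 (adjusted p = 0.940).

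Acan also went with the column numbers, in the direction opposite to Vcan. It held 59.2 to 73.2 CPM in HGPS mice numbered 19 to 23 and 32.4 to 49.1 CPM in those numbered 48 to 50 (edgeR, adjusted p = 0.290 between the sets). With the number range as a term the log2 fold change of HGPS over 2-mo WT was 0.30 (adjusted p = 0.404), and that of 24-mo WT over 2-mo WT was -0.004 (adjusted p = 0.998). With the fat and muscle scores the difference of HGPS from 2-mo WT was 0.35 (edgeR, adjusted p = 0.510). It also missed the wider rule without HGPS replicate 1, 2 or 3 or 2-mo WT replicate 1, 2 or 3, at adjusted p-values of 0.0507 to 0.0731. The age difference met that rule with DESeq2 (0.62, adjusted p = 0.0396) and without 24-mo WT replicate 6 (0.75, edgeR, adjusted p = 0.0290). Cartilage itself was nearly absent from the libraries by its markers. The 6 chondrocyte markers summed to 0.543 to 0.956 CPM in HGPS, 0.415 to 1.68 CPM in 2-mo WT and 0.430 to 0.986 CPM in 24-mo WT, with Ucma at 0 in all 18 mice. Col2a1, the main collagen of cartilage, had 32 counts over all 18 mice.

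Hapln1, the link protein next to Vcan in the genome, separated all 3 groups. It held 2.69, 3.40 and 4.81 CPM in HGPS (lowest, median and highest), 6.04, 6.59 and 7.39 CPM in 2-mo WT and 14.4, 21.1 and 22.4 CPM in 24-mo WT. No range touched another. HGPS lay 1.84-fold below 2-mo WT, a log2 fold change of -0.88 ± 0.14 (SE, edgeR, adjusted p = 9.44e-05), and 24-mo WT lay 2.99-fold above it, a log2 fold change of 1.58 ± 0.14 (adjusted p = 2.59e-07). Between HGPS and 24-mo WT the distance was 5.50-fold, or -2.46 ± 0.14 on the log2 scale (adjusted p = 2.47e-10).

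The counts behind Hapln1 were 55 to 154 per mouse in HGPS, 78 to 143 in 2-mo WT and 245 to 432 in 24-mo WT. The HGPS mice of both number ranges held like levels, at 2.69 to 4.37 CPM and 2.77 to 4.81 CPM. With the number range as a term the log2 fold change of HGPS against 2-mo WT was -0.81 (edgeR, adjusted p = 0.00284) and that of 24-mo WT against 2-mo WT was 1.71 (adjusted p = 0.00111), both past 0.05 but not past 0.001. With the fat and muscle scores as covariates the difference of HGPS from 2-mo WT was -0.58 (adjusted p = 0.0297), which is no longer a 1.5-fold change. The rise at 24 mo with these covariates was 1.73 and kept its call (adjusted p = 1.30e-06). Smooth muscle markers were lower in HGPS than in both WT groups, as given above, and their part in the Hapln1 difference was not tested.

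Hapln3, the link protein next to Acan, was close to the limit of detection. It had 6 to 18 counts per mouse in HGPS (0.251 to 0.897 CPM), 1 to 11 counts in 2-mo WT (0.0592 to 0.505 CPM) and 0 to 4 counts in 24-mo WT (0 to 0.216 CPM). All 6 HGPS mice had more than any 24-mo WT mouse, and 4 of 6 had more than any 2-mo WT mouse. Hapln3 met the count filter only through the HGPS mice, so its higher level there follows in part from how it entered the test. The log2 fold change was 1.43 ± 0.50 for HGPS over 2-mo WT (SE, edgeR, adjusted p = 0.0262), 2.36 ± 0.55 for HGPS over 24-mo WT (adjusted p = 0.00178) and -0.92 ± 0.63 between the WT ages (adjusted p = 0.393), none of them called. Over 2-mo WT it fell outside the wider rule with the number range as a term (0.97, edgeR, adjusted p = 0.229), with the fat and muscle scores (0.43, adjusted p = 0.725) and without the count filter (1.46, adjusted p = 0.0585). The same happened without HGPS replicate 1 or 3 or 2-mo WT replicate 2, 3 or 5, at adjusted p-values of 0.0502 to 0.0607. Over 24-mo WT the scores gave 1.68 (edgeR, adjusted p = 0.183), and the number range left it at 2.72 (adjusted p = 0.00155). The 2 mice with 0 Hapln3 counts had 942 and 758 Acan counts (67.6 and 38.6 CPM), on either side of the 24-mo WT median of 47.1 CPM. With 0 to 4 Hapln3 counts per mouse in that group, these zeros cannot show whether the neighbouring genes go together.

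The balance between link protein and lectican was set out as counts of a gene per 100 counts of another in the same library, a description with no test and with no correction for transcript length. Hapln1 per Vcan was 2.72 ± 0.91% in HGPS (mean ± SD, n = 6), 4.62 ± 0.23% in 2-mo WT and 7.73 ± 0.91% in 24-mo WT. The ranges were 1.42% to 4.18%, 4.33% to 4.97% and 6.63% to 9.02%, and did not overlap. In 24-mo WT both genes were higher than in 2-mo WT, and Hapln1 by more. Acan per Vcan was 42.7 ± 18.9% in HGPS, 24.4 ± 3.51% in 2-mo WT and 21.3 ± 11.1% in 24-mo WT, with overlapping ranges of 20.6% to 70.1%, 20.6% to 30.1% and 13.5% to 42.7%. Among HGPS mice this second proportion combined the opposite splits of Acan and Vcan by column number.

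**Figure D3:**
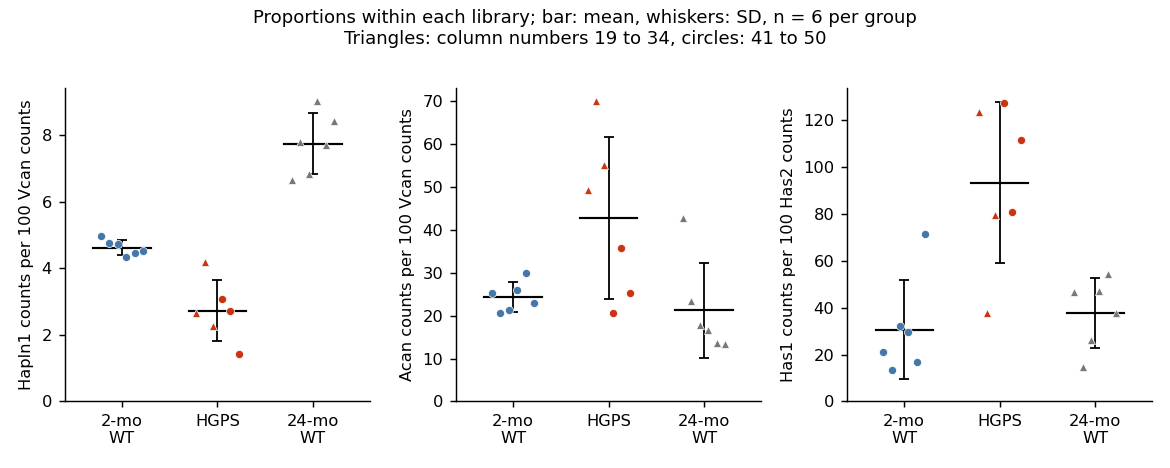
Counts of Hapln1 per 100 counts of Vcan, of Acan per 100 counts of Vcan and of Has1 per 100 counts of Has2 on linear axes from 0, with 1 point per mouse (triangles for column numbers 19 to 34, circles for 41 to 50), bars for the mean and whiskers for the SD of 6 mice. Hapln1 per Vcan forms a separate range in each group, from 1.42 to 4.18 in HGPS to 6.63 to 9.02 in 24-mo WT, while the other proportions overlap.

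The synthases were expressed at low levels. Has2, the main synthase of the developing heart and vessels, held 0.877 to 2.62 CPM in HGPS, 1.38 to 2.85 CPM in 2-mo WT and 1.24 to 2.64 CPM in 24-mo WT, and the 3 ranges overlapped. Its log2 fold change was -0.45 ± 0.27 for HGPS over 2-mo WT (SE, edgeR, adjusted p = 0.187), -0.15 ± 0.27 between the WT ages (adjusted p = 0.798) and -0.31 ± 0.27 for HGPS over 24-mo WT (adjusted p = 0.365). These values rested on 17 to 62 counts per mouse. HGPS lay below 2-mo WT at the wider rule with the fat and muscle scores (-1.10, edgeR, adjusted p = 0.0316) and without HGPS replicate 6 (-0.69, adjusted p = 0.0349), and not with the number range as a term (-0.31, adjusted p = 0.523).

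Has1, a synthase known for induction by cytokines, held 0.504, 1.22 and 2.92 CPM in HGPS (lowest, median and highest), 0.267, 0.501 and 1.03 CPM in 2-mo WT and 0.287, 0.713 and 1.23 CPM in 24-mo WT. Of the HGPS mice, 4 of 6 exceeded every 2-mo WT mouse. Has1 met the count filter only through the HGPS mice, so its higher level there follows in part from how it entered the test. The log2 fold change of HGPS over 2-mo WT was 1.31 ± 0.44 (SE, edgeR, adjusted p = 0.0206), and met the wider rule alone. It was 1.68 with the number range as a term (edgeR, adjusted p = 0.0143), but missed that rule with the fat and muscle scores (1.11, adjusted p = 0.253) and without HGPS replicate 6 (0.96, adjusted p = 0.0724). For HGPS over 24-mo WT it was 0.97 ± 0.43 (edgeR, adjusted p = 0.0681), with adjusted p-values of 0.0306 to 0.0448 without HGPS replicate 2 or 5 or 24-mo WT replicate 1. Between the WT ages it was 0.34 ± 0.46 (adjusted p = 0.702).

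Counts of Has1 per 100 counts of Has2 were 93.4 ± 34.2 in HGPS, 30.7 ± 21.2 in 2-mo WT and 37.8 ± 14.9 in 24-mo WT (mean ± SD, n = 6). Their ranges overlapped, from 37.5 to 127.3 in HGPS and from 13.3 to 71.4 in 2-mo WT. Mesothelium, which coats the outside of vessels in the chest and makes hyaluronan, was followed through 7 markers that summed to 10.8 to 29.2 CPM in HGPS, 0.711 to 37.5 CPM in 2-mo WT and 0.493 to 33.3 CPM in 24-mo WT. Of the 6 mesothelial markers tested, 0 were called or had an unadjusted p under 0.05 in any of the 3 comparisons by edgeR, and 0 were called by DESeq2. Their median log2 fold change in HGPS over 2-mo WT was 1.08, and the part of these cells in the Has1 values was not tested.

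Cd44, the principal cell surface receptor for hyaluronan, was the member with the least spread in HGPS and stood apart there. It held 107.6, 118.3 and 128.2 CPM in HGPS (lowest, median and highest), 64.2, 75.5 and 82.2 CPM in 2-mo WT and 62.4, 73.6 and 84.7 CPM in 24-mo WT. Every HGPS mouse exceeded every WT mouse of either age, and the WT ages overlapped. The log2 fold change was 0.65 ± 0.08 over 2-mo WT (SE, edgeR, adjusted p = 4.92e-06), 0.68 ± 0.08 over 24-mo WT (adjusted p = 1.44e-06) and -0.04 ± 0.08 between the WT ages (adjusted p = 0.825). The coefficient of variation was 7.89% in HGPS, 8.86% in 2-mo WT and 11.3% in 24-mo WT.

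Both number ranges of HGPS mice gave like Cd44 levels, 107.6 to 128.1 CPM and 108.0 to 128.2 CPM. The call held with the number range as a term (log2 fold change over 2-mo WT 0.63, edgeR, adjusted p = 0.000147) and with the fat and muscle scores (0.74, adjusted p = 0.000715). The change lay close to the fold cut-off, and a test of whether it exceeded 1.5-fold did not pass (edgeR's glmTreat, adjusted p = 0.584 over 2-mo WT and 0.277 over 24-mo WT). Cd44 is strongly expressed by leukocytes. The 7 macrophage markers summed to 846.2 to 1365 CPM in HGPS, 447.9 to 692.5 CPM in 2-mo WT and 395.4 to 812.3 CPM in 24-mo WT. Of them, 6 of 7 were called higher in HGPS than in 2-mo WT and 7 of 7 higher than in 24-mo WT, and their part in the Cd44 difference was not tested.

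Tnfaip6, an inflammation-induced secreted protein, was low in old WT aortas. It held 11.9, 14.6 and 28.4 CPM in HGPS (lowest, median and highest), 12.1, 16.1 and 22.2 CPM in 2-mo WT and 3.99, 7.24 and 9.17 CPM in 24-mo WT. Every 24-mo WT mouse lay below every mouse of both other groups. The log2 fold change of 24-mo WT over 2-mo WT was -1.27 ± 0.26 (SE, edgeR, adjusted p = 0.00280), outside the cut-offs, and HGPS exceeded 24-mo WT by 1.41 ± 0.26 (adjusted p = 0.000201), which was called. HGPS and 2-mo WT differed by 0.13 ± 0.25 (adjusted p = 0.694).

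The age difference of Tnfaip6 shrank when the column numbers entered the fit. HGPS mice numbered 19 to 23 held 11.9 to 15.0 CPM, and those numbered 48 to 50 held 14.3 to 28.4 CPM (edgeR, adjusted p = 0.316). With the number range as a term the log2 fold change of 24-mo WT over 2-mo WT was -0.47 (adjusted p = 0.658) and that of HGPS over 24-mo WT was 0.95 (adjusted p = 0.00873), below the cut-offs. With the fat and muscle scores HGPS over 24-mo WT was 1.98 with an adjusted p of 0.00129 (edgeR), which also ended the call, and glmTreat against 1.5-fold did not pass (adjusted p = 0.0108). With the replicate block the age difference was -1.31 and passed them (adjusted p = 0.000737), although the replicate numbers do not pair the mice.

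Sox9, the regulator of chondrocyte identity, was scarce in the aorta and varied most in old mice. It held 0.750, 1.42 and 2.41 CPM in HGPS (lowest, median and highest), 0.735, 0.828 and 1.12 CPM in 2-mo WT and 1.08, 1.98 and 4.57 CPM in 24-mo WT, on 10 to 78 counts per mouse. Of the 24-mo WT mice, 5 of 6 exceeded every 2-mo WT mouse. The log2 fold change between the WT ages was 1.42 ± 0.36 (SE, edgeR, adjusted p = 0.0133), which met the wider rule, and was 1.06 with an adjusted p of 0.483 with the number range as a term. With the fat and muscle scores it was 1.13 (edgeR, adjusted p = 0.142). For HGPS over 2-mo WT it was 0.78 ± 0.36 (adjusted p = 0.0883), 0.01 with these scores (adjusted p = 0.988) and 0.93 without HGPS replicate 4 (adjusted p = 0.0426), and for HGPS over 24-mo WT it was -0.64 ± 0.34 (adjusted p = 0.132).

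Matn3, an adaptor of the cartilage matrix, held 0.510, 1.37 and 3.12 CPM in HGPS, 0.349, 0.684 and 1.30 CPM in 2-mo WT and 0.789, 1.10 and 1.85 CPM in 24-mo WT (lowest, median and highest). Only 3 of 6 HGPS mice exceeded every 2-mo WT mouse. Its log2 fold change was 1.18 ± 0.38 for HGPS over 2-mo WT (SE, edgeR, adjusted p = 0.0166), 0.78 ± 0.39 between the WT ages (adjusted p = 0.214) and 0.40 ± 0.36 for HGPS over 24-mo WT (adjusted p = 0.380). Without HGPS replicate 6 the difference from 2-mo WT was 0.89 and missed the wider rule (edgeR, adjusted p = 0.0565), and with the fat and muscle scores that from 24-mo WT was 1.31 and met it (adjusted p = 0.0363). Neither Sox9 nor Matn3 was called in any comparison.

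**Figure D4:**
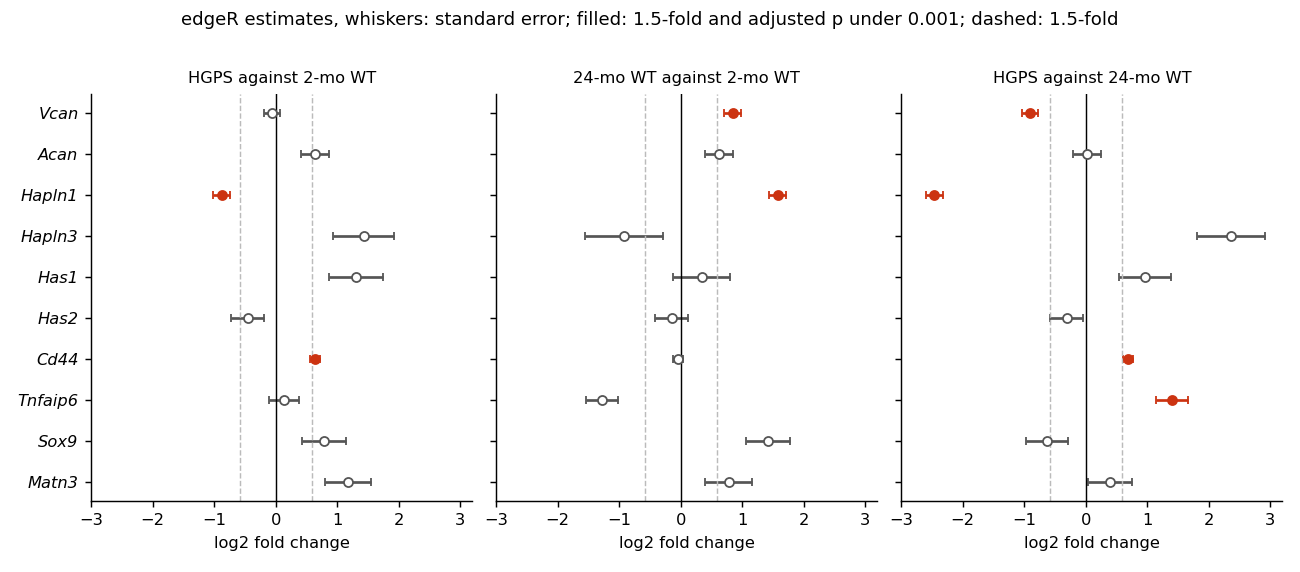
Log2 fold changes from edgeR for the 10 genes in the 3 comparisons, with whiskers for the standard error, filled points for genes past the cut-offs and dashed lines at a 1.5-fold change. Hapln1 lies at -0.88, 1.58 and -2.46 from left to right, Cd44 is filled on the left and right only, and Vcan is filled in the middle and on the right.

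The wider machinery around these genes was followed in 92 listed genes, of which 74 passed the count filter. In HGPS over 2-mo WT 7 were called higher and 2 lower, 12.2% of those tested, with a median log2 fold change of 0.10. Between the WT ages 4 were called higher and 2 lower (8.11%, median -0.07), and in HGPS over 24-mo WT 8 were called higher and 5 lower (17.6%, median 0.15). Of all genes, 5.27% were called higher and 4.23% lower in the first comparison, 1.28% and 0.717% in the second and 6.02% and 6.11% in the third. Among the pathway genes called in any comparison, Cemip, Col10a1, Col11a1, Chad and Ptx3 met the count filter only through the HGPS mice, in which they were high, so these counts of calls are a description and no support for a rise. The enzymes that make the sugar precursors of hyaluronan, together with Has3, gave 0 calls among 8 tested genes in every comparison by edgeR's quasi-likelihood test, and 4, 2 and 5 of the 8 had an unadjusted p under 0.05 in the 3 comparisons. DESeq2 called 0 of them as well. The neural lectican Ncan was not called either, and the link proteins Hapln2 and Hapln4 stayed below the count filter.

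Among the genes that degrade hyaluronan, Hyal1, the lysosomal hyaluronidase, fell in HGPS from 155.9 to 180.6 CPM in 2-mo WT to 85.9 to 123.9 CPM (log2 fold change -0.73 ± 0.08, SE, edgeR, adjusted p = 1.14e-06). The groups did not overlap, and 24-mo WT lay between them at 136.4 to 149.4 CPM. Hyal1 lost this call with the number range as a term, where its log2 fold change of -0.56 fell short of the fold cut-off (edgeR, adjusted p = 1.39e-05). With the fat and muscle scores it was -0.60 (edgeR, adjusted p = 0.00125), also outside the cut-offs. Cemip, a protein needed for the breakdown of extracellular hyaluronan, was higher in HGPS. The gene met the count filter only through the HGPS mice, so this difference follows in part from how it entered the test. It had 468 counts over the 6 HGPS mice (0.501 to 10.3 CPM) and 3 counts over the 6 2-mo WT mice, a ratio of 116 with a 95% counting interval of 39.4 to 564 (exact, scaled by library size, counting error only). The interval does not cover the spread between the HGPS mice, which held 12 to 205 counts each. Over 2-mo WT Cemip was called with the number range as a term (edgeR, adjusted p = 0.00013). It was not called with the fat and muscle scores (adjusted p = 0.00498). The 24-mo WT mice held 0.216 to 1.58 CPM of Cemip, which overlapped HGPS. Every 24-mo WT mouse lay above every 2-mo WT mouse in Cemip. The log2 fold change between the WT ages was 4.22 ± 1.11 (SE, edgeR, adjusted p = 0.0163), which met the wider rule and not the cut-offs.

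Among the other hyaluronan receptors 1 of 4 tested genes was called. Hmmr, a hyaluronan-binding protein that also acts on the spindle of dividing cells, held 2.56 to 5.49 CPM in HGPS, 0.568 to 1.78 CPM in 2-mo WT and 0.818 to 1.85 CPM in 24-mo WT. Its log2 fold change was 1.74 ± 0.28 over 2-mo WT (SE, edgeR, adjusted p = 6.32e-05) and 1.63 ± 0.27 over 24-mo WT (adjusted p = 7.98e-05). The 6 cell cycle markers moved in the same direction, with summed levels of 31.2 to 55.5 CPM in HGPS, 9.17 to 15.9 CPM in 2-mo WT and 8.55 to 16.1 CPM in 24-mo WT and 4 of 6 called higher in HGPS than in 2-mo WT. Their part in the Hmmr difference was not tested. Hmmr kept both calls with the number range as a term. With the fat and muscle scores it lost both, at 1.24 over 2-mo WT (edgeR, adjusted p = 0.0377) and 1.25 over 24-mo WT (adjusted p = 0.0566).

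In the list of inter-alpha-trypsin inhibitor heavy-chain family genes and partners, 3 of 5 tested genes were called between the WT ages. Of these, 2 were higher and 1 lower, where 1.28% of all genes were called higher and 0.717% lower. Itih2 (adjusted p = 0.193) and Ptx3 (0.242, edgeR) were not called. Itih3 rose from 6.75 to 12.4 CPM in 2-mo WT to 16.5 to 21.3 CPM in 24-mo WT (log2 fold change 1.04 ± 0.13, SE, edgeR, adjusted p = 2.57e-05). Itih4 fell from 299.8 to 444.2 CPM to 206.1 to 251.2 CPM (-0.75 ± 0.13, adjusted p = 0.000748). Itih5 was the gene of this list called higher over 2-mo WT both in HGPS (0.67 ± 0.13, adjusted p = 0.000371) and in 24-mo WT (0.87 ± 0.13, adjusted p = 0.000138), and these comparisons share the 2-mo WT mice. Itih3 lay lower in HGPS than in 24-mo WT (-0.83 ± 0.13, adjusted p = 4.08e-05). Ptx3, a pentraxin that joins Tnfaip6 and heavy chains in cross-linking hyaluronan, was called higher in HGPS than in 24-mo WT (2.69 ± 0.53, adjusted p = 0.000395) on 0.420 to 3.78 CPM against 0.0586 to 0.600 CPM, ranges that overlapped. It met the count filter only through the HGPS mice, so this difference follows in part from how it entered the test. With the fat and muscle scores Itih5 in HGPS over 2-mo WT was 0.34 and missed the wider rule (edgeR, adjusted p = 0.169). Between the WT ages Itih3 and Itih5 kept their calls with these scores, and Itih4 did not (adjusted p = 0.00162). Itih3 and Ptx3 lost their calls against 24-mo WT (adjusted p = 0.0745 and 0.0132). By edgeR with the number range as a term 0 of the 5 were called in any comparison, where 3, 2 and 3 had an unadjusted p under 0.05 in HGPS over 2-mo WT, between the WT ages and in HGPS over 24-mo WT.

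Enzymes that build the chondroitin sulfate chains of lecticans gave 0 calls among 21 tested in HGPS over 2-mo WT, where 10 had an unadjusted p under 0.05 by edgeR's quasi-likelihood test and DESeq2 called 2. Csgalnact1, which starts the chondroitin chain, rose between the WT ages from 21.2 to 25.6 CPM in 2-mo WT to 26.9 to 47.4 CPM in 24-mo WT (log2 fold change 0.65 ± 0.11, SE, edgeR, adjusted p = 0.000731), and HGPS lay below 24-mo WT (-0.64 ± 0.11, adjusted p = 0.000142). Its age difference was not called with the number range as a term (0.85, adjusted p = 0.0342) or with the fat and muscle scores (0.70, adjusted p = 0.0039). Xylt1, which attaches the first sugar to the core protein, and Chsy3, which lengthens the chain, were higher in HGPS than in 24-mo WT by 0.74 ± 0.16 (adjusted p = 0.000993) and 0.63 ± 0.10 (adjusted p = 2.89e-05). Of the 3 calls against 24-mo WT, that of Csgalnact1 alone held with the number range, and that of Chsy3 alone with the scores. Of 6 lectican-cleaving ADAMTS proteases tested, Adamts15 was called, and fell in HGPS from 90.9 to 153.7 CPM in 2-mo WT to 44.3 to 74.8 CPM (-0.87 ± 0.14, adjusted p = 7.72e-05). With the number range as a term it lost this call (-0.86, adjusted p = 0.00184) and another protease of the list was called. With the fat and muscle scores it was -1.01 (adjusted p = 0.00266), outside the cut-offs.

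Of the other chondrogenic regulators, Scx, a transcription factor of tendon and cartilage progenitors, rose in HGPS from 2.38 to 6.04 CPM in 2-mo WT to 7.94 to 16.7 CPM (log2 fold change 1.25 ± 0.19, SE, edgeR, adjusted p = 4.63e-05). It lost this call with the number range as a term (0.98, adjusted p = 0.00193) and with the fat and muscle scores (0.87, adjusted p = 0.0316). Pth1r, the receptor that holds back chondrocyte hypertrophy, rose between the WT ages from 12.3 to 16.1 CPM to 17.9 to 27.7 CPM (0.65 ± 0.11, adjusted p = 0.000673). With the number range as a term this age difference was 0.46 and missed the wider rule (adjusted p = 0.292). With the fat and muscle scores it was 0.51 (adjusted p = 0.00673), outside the cut-offs. Against 24-mo WT, 3 regulators were called lower in HGPS: Sox5, a partner of Sox9 (-0.75 ± 0.13, adjusted p = 8.84e-05), Ihh, a hedgehog ligand (-1.38 ± 0.23, adjusted p = 7.09e-05), and Pth1r (-0.88 ± 0.11, adjusted p = 4.42e-06). The groups did not overlap for any of these 3 genes, where 22.2% of all genes were apart. Sox5 and Pth1r kept these calls with the number range as a term and Ihh did not (edgeR, adjusted p = 0.00154). With the fat and muscle scores Pth1r alone kept its call (adjusted p = 5.21e-05).

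Cartilage matrix genes gave 3 calls among 14 tested in HGPS over 2-mo WT, and 7 further genes of that list did not pass the count filter, Col2a1 and Ucma among them. All 3 met the filter through HGPS alone, since 10 counts were reached by all 6 HGPS mice for each, by 0 2-mo WT mice for Col10a1 and Chad and 2 for Col11a1, and by 1 24-mo WT mouse for Col10a1 and 0 for the others. Their higher level in HGPS therefore follows in part from how they entered the test. Col11a1 was the 1 of them that kept its call with the number range as a term (4.19, edgeR, adjusted p = 0.000923), and with the fat and muscle scores 0 of the 14 were called, where 3 had an unadjusted p under 0.05. Col11a1, a fibril collagen, held 0.961, 2.41 and 21.7 CPM in HGPS (lowest, median and highest) and 0.230 to 0.652 CPM in 2-mo WT (log2 fold change 3.86 ± 0.73, SE, edgeR, adjusted p = 0.000364). Col10a1, the collagen of hypertrophic cartilage, held 0.688 to 1.76 CPM against 0.178 to 0.413 CPM (2.12 ± 0.33, adjusted p = 5.62e-05), and the cell-binding protein Chad held 0.500 to 0.840 CPM against 0.140 to 0.321 CPM (1.52 ± 0.29, adjusted p = 0.000373). All 3 rested on low counts, with 45, 30 and 23 counts over the 6 2-mo WT mice. Between the WT ages the matrix protein Cilp2 fell from 3.49 to 8.07 CPM to 0.662 to 1.58 CPM (-2.42 ± 0.28, adjusted p = 8.83e-06). With the number range as a term this was -2.33 and not called (edgeR, adjusted p = 0.0144). With the fat and muscle scores it kept its call.

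Against 24-mo WT, HGPS was called higher in 4 cartilage matrix genes, Col11a1 (log2 fold change 4.65 ± 0.79, SE, edgeR, adjusted p = 9.06e-05), Col10a1 (1.44 ± 0.31, adjusted p = 0.000867), Cilp (1.65 ± 0.22, adjusted p = 5.86e-06) and Cilp2 (2.45 ± 0.28, adjusted p = 1.32e-06). Col11a1 and Col10a1 met the count filter only through the HGPS mice, so here too their higher level follows in part from how they entered the test. Cilp2 held 2.59 to 7.90 CPM in HGPS, which overlapped its range in 2-mo WT. These 4 calls held with the number range as a term, and with the fat and muscle scores 0 of the list were called by edgeR in this comparison, where 5 had an unadjusted p under 0.05. With the number range as a term, 4 pathway genes were called by edgeR in HGPS over 2-mo WT and 0 between the WT ages, where 8 had an unadjusted p under 0.05. With the fat and muscle scores as covariates 0 were called in HGPS over 2-mo WT, where 29 had an unadjusted p under 0.05, and 3 between the WT ages.

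**Figure D5:**
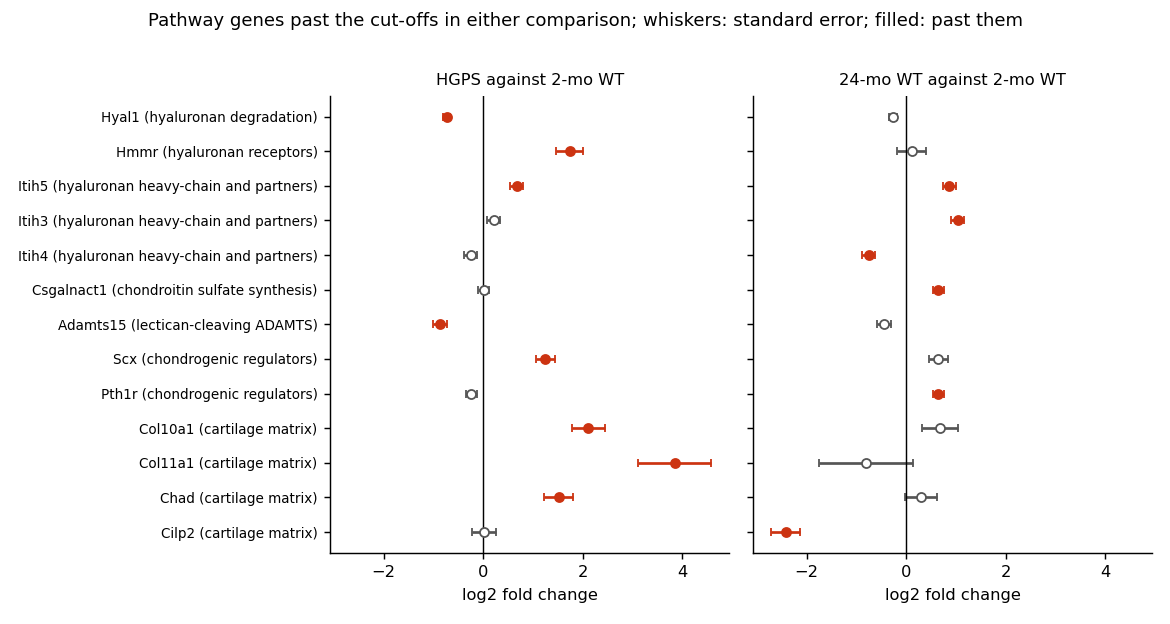
Log2 fold changes with standard errors from edgeR for the pathway genes called in HGPS over 2-mo WT or in 24-mo WT over 2-mo WT, with their list in brackets and filled points for genes past the cut-offs. Cemip is left out because 2-mo WT held 3 counts of it. Itih5 is filled on both sides at 0.67 and 0.87, Col11a1 lies farthest right at 3.86 in HGPS, and Cilp2 lies farthest left at -2.42 in 24-mo WT.

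The genes most like the members over the 18 libraries were found by Pearson r of log2 CPM among tested genes with a mean count of at least 100. These values describe 18 libraries that fall into 3 groups and share their depth and tissue mixture, so a gene with the same group means scores high. Vcan was most like Map7d2 (r = 0.93), Chrdl1 (0.93) and Csgalnact1 (0.92), of which the last is the chondroitin enzyme described above. Hapln1 was most like Enpp5 (r = 0.98), Tceal6 (0.98) and Kitl (0.98), and Cd44 was most like Litaf (0.96), Vnn1 (0.95) and Pqlc3 (0.95). Tnfaip6 was most like Nectin3 (r = 0.93), Fstl1 (0.90) and Angptl2 (0.88). Acan followed Zdhhc18 (r = 0.88), Fam129b (0.86) and Homer3 (0.86), Sox9 followed Fn1 (0.86), Fat1 (0.83) and Junb (0.82), and Hapln3 followed Atp5e (0.88), Adipor2 (0.87) and Cox7c (0.87).

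The scarcer genes had looser neighbours, with Has1 nearest to Ildr2 (r = 0.82), Slc5a6 (0.79) and Adam9 (0.78) and Matn3 nearest to Col8a2 (0.81), Piga (0.74) and Mafg (0.73). With group means removed, Vcan was most like Ccdc141 (r = 0.88), Grb10 (0.86) and Epdr1 (0.84), none of which was among its 3 nearest genes before. Among the members themselves, also with group means removed and over the 18 libraries, the lowest r was -0.75 for Hapln1 and Sox9 and the highest was 0.61 for Has1 and Sox9. Acan and Tnfaip6 had an r of -0.64, and the neighbours Hapln1 and Vcan had an r of 0.19.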

How the data were processed

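Total RNA of 18 mouse aortas, depleted of ribosomal RNA, was made into stranded libraries and sequenced from both ends. The authors quantified the transcripts of GENCODE M23 (GRCm38.p6) with salmon and summed them per gene with tximport, as the study's methods state. The submitters' processing notes name Bowtie 0.12.2 with mm10 and GRCm38 instead, so which tool gave the counts is not settled. The deposited values are estimated counts as whole numbers, without normalization. Columns were matched to the sample labels, and 0 columns were left without a sample. Mice had 12413229 to 30844775 counts in total. No 2 mice of a group agreed within sampling noise (chi-square per degree of freedom at least 8.07 over 45 pairs). Symbols, coordinates and transcript lengths came from GENCODE M21, on the same assembly, where 54107 of 54281 identifiers were found, and promoters came from RefSeq.

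Genes reaching 10 counts in 6 or more mice entered edgeR 4.0.16 in R 4.3.3 (TMM, then glmQLFit and glmQLFTest), with all 3 groups in 1 fit and 15 residual degrees of freedom. Standard errors were derived from the log2 fold change and its F statistic, and a prior count of 2 was used for log2 CPM. The fits were tested on simulated data. Adjusted p-values are Benjamini-Hochberg over all genes tested. Named were the 10 members, the pathway genes past the cut-offs (at most 5 per list), the 3 genes most like each member (for Has2 not reported here), and Lmna. Has3, Ncan, Hapln2, Hapln4, Adamts9, Col2a1 and Ucma were named outside this rule. The members and lists were chosen with earlier results of these data known. Mice that share a replicate number across groups are different animals, and their deviations from the group means correlated between -0.131 and 0.169 (over 0.1 in 2 of 18 pairs). Alternatives covered DESeq2 1.42.0, other normalizations and filters, a replicate block, fits of only the compared groups, thinning to the smallest total, covariates, other cut-offs, each mouse left out in turn and, added after seeing the data, the column number range. Proportions of members within a library are given as percent, not on the log2 scale as planned. Intervals of ratios cover counting error only.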

Additional observations from a re-analysis of the deposited data

How the results depend on the processing

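Members called numbered 2 in HGPS over 2-mo WT, 2 between the WT ages and 4 in HGPS over 24-mo WT, and pathway genes 9, 6 and 13. Leaving out each mouse kept the member counts at 2, 2 and 4 and gave 6 to 11, 3 to 5 and 9 to 13 pathway genes. The pathway count between the WT ages was 3 without 2-mo WT replicate 2, 3, 4, 5 or 6 or without 24-mo WT replicate 5. With brown fat and skeletal muscle scores, members were 1, 1 and 2 and pathway genes 0, 3 and 2. At an adjusted p under 0.05 members were 6, 4 and 5 and pathway genes 31, 17 and 39, and with glmTreat against 1.5-fold members were 0, 1 and 1 and pathway genes 1, 1 and 3. DESeq2 gave 14 and thinning 5 pathway genes in HGPS over 2-mo WT, and the 2 groups alone gave 8 in HGPS over 24-mo WT. With the number range as a term, members were 1 in HGPS over 2-mo WT and 1 between the WT ages, and pathway genes 4 and 0. Within 1 number range HGPS over 2-mo WT gave 1 member and 3 pathway genes. The cause was not tested, beyond fewer mice within a range and a stricter null in glmTreat.

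With the replicate block, 3 pathway genes were called between the WT ages and Tnfaip6 joined the members at -1.31 (DESeq2 called it as well, at -1.28). The numbers do not pair the mice.

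Among single members, 691 estimates kept their direction and side of the cut-offs, 15 lost a call, 10 gained one and 18 turned sign, all 18 uncalled. Vcan in HGPS over 2-mo WT was 0.22 with fat and muscle scores, 0.17 with the number range, 0.16 within it and -0.18 to 0.0099 with each mouse left out, where Tnfaip6 was -0.041 to 0.23. Between the WT ages, fat and muscle scores gave -0.18 for Has1 and -0.064 for Matn3, the number range -0.0041 for Acan and 0.16 for Has2, and leaving out a mouse -0.081 to 0.0066 for Cd44. Acan in HGPS over 24-mo WT was -0.37 with the scores and -0.10 to 0.25 with a mouse left out. Hapln3, Has1, Has2, Sox9 and Matn3 rested on few counts. Thinning to the smallest total left the 9 members it still tested, all but Hapln3, on their side of an adjusted p of 0.05.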
